A study of Rattus norvegicus with 30 samples.

Results

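Cathepsin mRNA was compared between kidneys of rats on a low salt diet and of other rats switched to a high salt diet. The 9 genes *Ctsa*, *Ctsb*, *Ctsc*, *Ctsd*, *Ctsh*, *Ctsk*, *Ctsl*, *Ctss* and *Ctsz* were chosen by gene symbol out of 32545 genes in the count table. Each symbol was found on 1 row, and all 9 genes passed the low-count filter in every comparison. The main contrast of interest was between cathepsins of tubular lysosomes, taken as *Ctsa*, *Ctsb*, *Ctsh* and *Ctsl*, and cathepsins of leukocytes, taken as *Ctsc*, *Ctss* and *Ctsz*. This grouping is from general knowledge, and the study itself places *Ctsc* and *Ctsd* in the distal convoluted and connecting tubule. *Ctsd*, found in nearly every cell, and *Ctsk*, known from bone and connective tissue, were placed in neither group. At 21 d of the high salt diet the cortex held less *Ctsa*, *Ctsb* and *Ctsl* mRNA and more *Ctss* and *Ctsz* mRNA than on the low salt diet. *Ctsh* and *Ctsc* did not pass the test at that time.

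The 30 mRNAseq libraries came from the cortex (Cx) and the outer medulla (OM) of right kidneys of normal male Sprague-Dawley (SD) rats, an outbred strain with no altered gene. All rats were kept on an AIN-76A diet with 0.4% NaCl (LS), and the HS14 and HS21 groups then ate a diet with 4.0% NaCl for 14 and 21 d. There were 5 libraries in each of the 6 groups (Cx LS, Cx HS14, Cx HS21, OM LS, OM HS14 and OM HS21), and the ages stated in the sources used here are those of rats with implanted probes, rats studied for filtration and rats used for nephron segments, and none is tied to these libraries. Because rats were sampled once, the diet groups are different animals. According to the study the collected kidneys were split into both tissues, so Cx and OM libraries of a diet likely share rats. Whether equal replicate numbers in Cx and OM come from 1 rat is not stated. The main tests compared the libraries as separate samples, and a block for the replicate number was an alternative in tests of both tissues.

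Cathepsins are proteases that are made as inactive precursors, carried to the lysosome and activated there by the low pH. Most are cysteine proteases (*Ctsb*, *Ctsc*, *Ctsh*, *Ctsk*, *Ctsl*, *Ctss*, *Ctsz*), *Ctsd* is an aspartic protease and *Ctsa* is a serine carboxypeptidase. In the proximal tubule (PT) they degrade filtered proteins that are taken up through the megalin and cubilin receptors, and in macrophages and dendritic cells they cut the invariant chain and prepare peptides for MHC class II. Whole tissue holds both sources, and in such bulk samples fewer cells of a type and less RNA per cell cannot be told apart.

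Between 5408126 and 21842843 read pairs were counted on genes in a library. The shallowest was OM HS14 replicate 10, and the next lowest held 12748841. The thick ascending limb marker *Umod* was at 853 to 1420 CPM (counts scaled to a common library size) in Cx LS and at 7293 to 13550 CPM in OM LS, higher in every OM library. Some libraries stood apart in the markers of nephron segments. OM LS replicate 2 held 347 CPM of *Slc12a3*, the thiazide-sensitive transporter of the distal convoluted tubule, against 8.59 to 20.3 CPM in the other 4 OM LS libraries, and 4310 CPM of *Slc34a1*, the phosphate transporter of the PT, against 127 to 1316 CPM. OM HS14 replicate 10 held 5498 CPM of *Umod* against 8566 to 11660 CPM in the rest of its group. Cx HS14 replicate 10 held 2119 CPM of *Slc12a3* against 1042 to 1271 CPM, and 3764 CPM of *Lrp2* (megalin) against 5593 to 5956 CPM.

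The genes lie on the following positions of the Rnor_6.0 annotation used for counting. *Ctsa* (ENSRNOG00000015857) spans chr3:161298962-161304625 on the plus strand and overlaps *Pltp* and *Neurl2* on the other strand, and because the libraries were unstranded, reads from the shared stretch cannot be told apart. *Ctsb* (ENSRNOG00000010331) is at chr15:46316741-46337612, *Ctsl* (ENSRNOG00000018566) at chr17:1872848-1879279 and *Ctsh* (ENSRNOG00000014064) at chr8:97439161-97458287. *Ctsd* (ENSRNOG00000020206) is at chr1:215541542-215553451 and *Ctsc* (ENSRNOG00000016496) at chr1:151918571-151949983. *Ctsk* (ENSRNOG00000021155, chr2:196655469-196666446) and *Ctss* (ENSRNOG00000021157, chr2:197655786-197679458) both lie on chromosome 2, with 989339 bases between them in this build. That distance does not hold in the later GRCr8 assembly. There the stretches before their starts lie far closer, at chr2:185747298-185747547 for *Ctsk* and chr2:185775146-185775395 for *Ctss*. *Ctsz* (ENSRNOG00000050697) is at chr3:172527107-172537877. The deposited gene length of *Ctss*, 990 bases, was the shortest of the 9, so its level per kilobase may be less comparable with the others.

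RefSeq gave the stretch of 250 bases before the start of 8 of the 9 genes on the GRCr8 assembly, a later build than the one used for counting. *Ctsb* had no entry. Those of 4 genes are shown, of *Ctss* and *Ctsz* as the genes with the largest rise in the Cx, of *Ctsl* as that with the largest fall, and of *Ctsd* for its lysosomal motif. Capitals mark TCACGTGA or its core CACGTG, which is the palindromic E-box bound by lysosome regulators such as TFEB, GAGGAAGT or its reverse complement ACTTCCTC, an ETS core of the kind bound by PU.1 of myeloid cells, and the core of the interferon-stimulated response element, GAAA repeated after 2 bases of any kind on either strand.
Ctss, GRCr8 chr2:185775146-185775395, plus strand: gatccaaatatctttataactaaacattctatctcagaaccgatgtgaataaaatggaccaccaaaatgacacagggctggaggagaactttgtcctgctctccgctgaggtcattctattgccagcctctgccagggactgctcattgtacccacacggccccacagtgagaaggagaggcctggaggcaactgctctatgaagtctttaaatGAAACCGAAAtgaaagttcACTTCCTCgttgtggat
Ctsz, GRCr8 chr3:183653848-183654097, minus strand: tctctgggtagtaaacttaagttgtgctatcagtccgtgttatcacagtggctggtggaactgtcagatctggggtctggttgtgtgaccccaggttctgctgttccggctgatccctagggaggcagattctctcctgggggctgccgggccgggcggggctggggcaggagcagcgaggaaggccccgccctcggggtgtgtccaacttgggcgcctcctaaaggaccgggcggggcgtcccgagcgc
Ctsl, GRCr8 chr17:769854-770103, plus strand: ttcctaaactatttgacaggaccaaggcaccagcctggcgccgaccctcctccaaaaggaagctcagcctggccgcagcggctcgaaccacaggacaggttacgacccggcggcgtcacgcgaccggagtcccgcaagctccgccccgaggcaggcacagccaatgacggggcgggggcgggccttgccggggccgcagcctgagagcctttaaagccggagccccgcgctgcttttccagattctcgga
Ctsd, GRCr8 chr1:206968822-206969071, minus strand: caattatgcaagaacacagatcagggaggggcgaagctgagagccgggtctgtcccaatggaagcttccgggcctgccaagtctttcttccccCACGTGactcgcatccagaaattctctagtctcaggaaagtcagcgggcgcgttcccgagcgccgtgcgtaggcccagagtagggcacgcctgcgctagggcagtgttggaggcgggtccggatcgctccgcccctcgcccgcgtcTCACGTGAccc
The *Ctss* stretch held GAAACCGAAA beginning 36 bases before the start and ACTTCCTC beginning 17 bases before it. On both strands, the interferon-stimulated core was found in 3.41% and GAGGAAGT in 2.04% of 33469 stretches of the same length. *Ctsd* held TCACGTGA beginning 11 bases before the start, a match found in 0.657% of the stretches, and a further CACGTG beginning 157 bases before it, where CACGTG alone, which includes the longer motif, was found in 5.59%. *Ctsc*, not shown, held ACTTCCTC beginning 248 bases before its start. None of these motifs was in the *Ctsz* or *Ctsl* stretch, and of the 8 stretches 5 held the common GC box GGGCGG or its reverse (30.5% of all) and 4 held CCAAT or its reverse (34.0% of all). A match describes the letters of the window only.

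On the low salt diet the cortex held mostly tubular cathepsin mRNA. Per kilobase of gene length, the highest mean level in Cx LS was that of *Ctsl* at 1481 ± 133 CPM per kilobase (SD, *n* = 5), followed by *Ctsb* at 1330 ± 69.9, *Ctsa* at 990 ± 56.3 and *Ctsh* at 760 ± 45.5 CPM per kilobase. *Ctsl* was above *Ctsb* within each of the 5 libraries, by 25.8 to 245 CPM per kilobase, although the ranges of both genes over the libraries overlapped, and the ranges of the other neighbours in this order did not. Lower levels followed for *Ctsd* (283 ± 7.38 CPM per kilobase) and *Ctsc* (170 ± 3.96), and far below these stood *Ctss* (24.7 ± 3.11), *Ctsz* (11.5 ± 1.43) and *Ctsk* (6.21 ± 0.893). *Ctsc* therefore stood closer to *Ctsd* than to *Ctss* or *Ctsz* in level.

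The OM on the same diet differed from the Cx in 7 of the 9 genes, of which 6 were lower and 1 higher, where 19.5% of all 14295 tested genes were called lower and 21.3% higher (edgeR quasi-likelihood test, Benjamini-Hochberg adjusted *P* under 0.05, here and below). The log2 ratio of OM to Cx was -2.79 for *Ctsa* (SE 0.19, adjusted *P* = 3.92e-06), -2.42 for *Ctsh* (SE 0.21, adjusted *P* = 1.8e-05) and -2.32 for *Ctsb* (SE 0.15, adjusted *P* = 2.75e-06). For *Ctsl* it was -1.18 (SE 0.25, adjusted *P* = 0.00405) and for *Ctsd* -0.47 (SE 0.13, adjusted *P* = 0.0123), a call that was lost with total-count scaling (-0.22, adjusted *P* = 0.291). *Ctsl* thus made up 41.7% ± 8.91 of the length-scaled sum of the 9 genes in OM LS against 29.3% ± 1.43 in Cx LS (SD, *n* = 5 each), and 39.3% ± 8.21 in OM LS without replicate 2.

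Among the genes grouped as leukocyte cathepsins the difference between the tissues was not uniform. *Ctsc*, the dipeptidyl peptidase that activates granule proteases, was lower in the OM, with a ratio of -1.59 (SE 0.11, adjusted *P* = 4.28e-06). *Ctsz*, a carboxypeptidase, was higher by 0.77 (SE 0.25, adjusted *P* = 0.0318). That call was lost in 6 of 10 fits without a single library and with limma (adjusted *P* = 0.0642). The edgeR fit with the replicate block lost it too (0.69, adjusted *P* = 0.0649). The *Ctss* ratio was 0.55 (SE 0.28, adjusted *P* = 0.138) and passed the test without OM LS replicate 2 (0.74, adjusted *P* = 0.00488). That library had the lowest *Ctss* of its group, 14.8 CPM, and the lowest summed macrophage markers, 76.1 CPM against 163 to 331 CPM. *Ctsk* had a ratio of 0.29 (SE 0.28, adjusted *P* = 0.428).

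**Figure D1:**
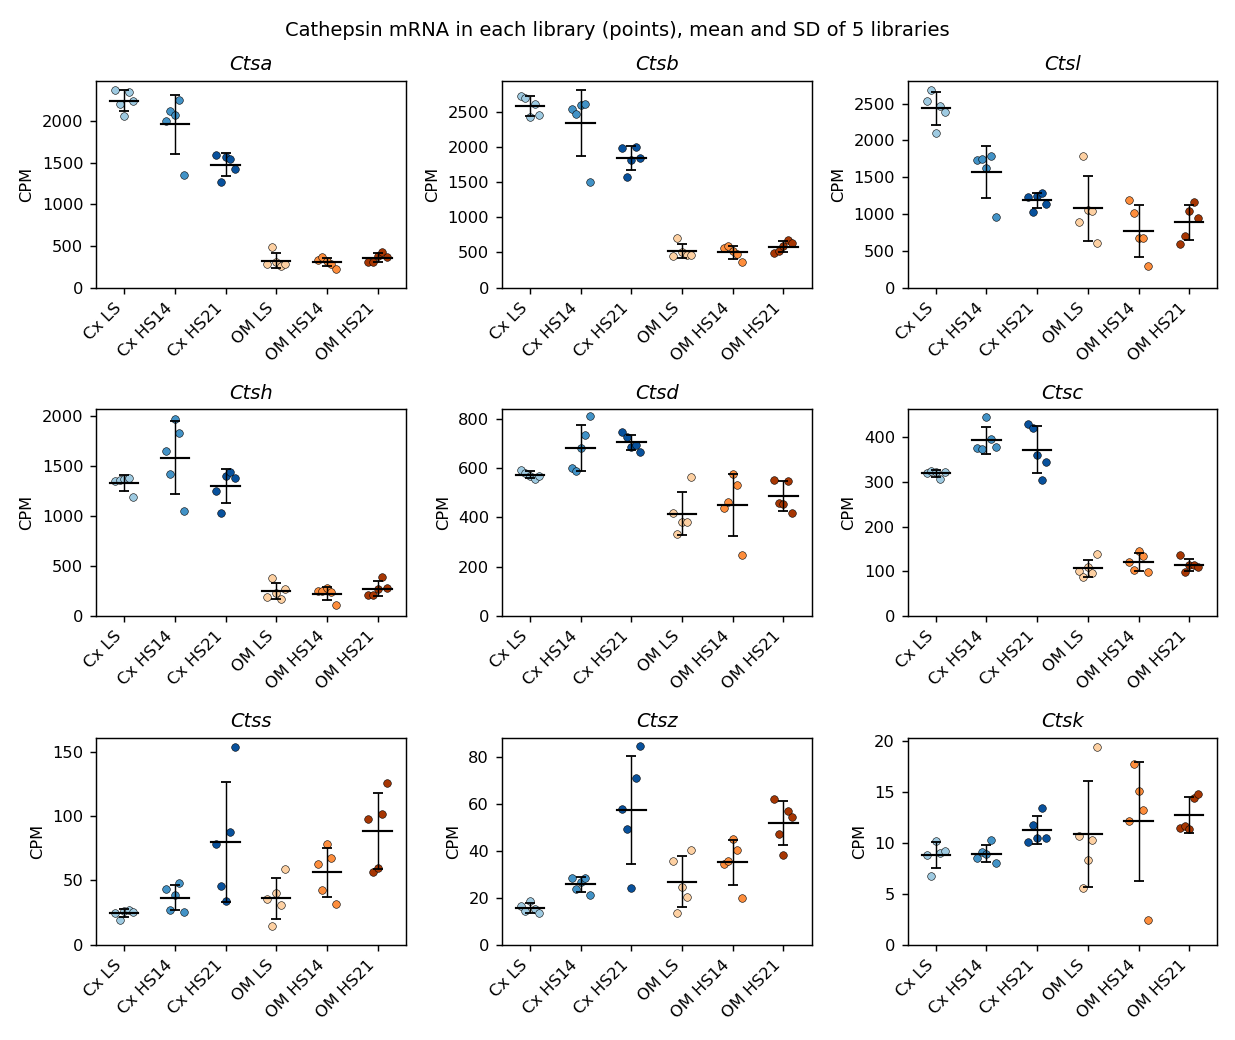
CPM of each cathepsin (vertical axis, from 0) in the 5 libraries of each tissue and diet group (points), with the group mean and SD (bars). In the Cx, *Ctsa*, *Ctsb* and *Ctsl* lie lower at HS21 than on LS while *Ctss* and *Ctsz* lie higher with a wide spread, from 33.6 to 154 CPM for *Ctss*.

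Of the comparisons between diets, the Cx at HS21 against LS had the most cathepsin calls, 4 genes raised and 3 lowered out of 9, where 18.9% of 14299 tested genes were raised and 20.5% lowered. The lowered genes were all tubular cathepsins and the raised ones were *Ctss*, *Ctsz*, *Ctsd* and *Ctsk*. The split over all genes depends on the scaling, with 2702 genes raised and 2936 lowered by TMM but 4401 raised and 1653 lowered when libraries were scaled by total counts, which moved the median log2 ratio of all genes from 0.00461 to 0.13. The 7 cathepsin calls held in the same direction under that scaling. In 3 genes (*Ctsd*, *Ctss*, *Ctsz*) every HS21 library was above every LS library and in 3 (*Ctsa*, *Ctsb*, *Ctsl*) every one was below, where 12.6% and 13.8% of tested genes separated in those directions.

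*Ctsl*, a broad endopeptidase of the lysosome and the gene with the steepest fall, stood at 2532, 2687, 2099, 2470 and 2380 CPM in the 5 Cx LS libraries. At HS14 it stood at 1732, 1749, 1622, 1791 and 959 CPM, and at HS21 at 1235, 1024, 1249, 1280 and 1141 CPM. All HS libraries were below all LS libraries at both times. The log2 ratio to LS was -0.65 at HS14 (SE 0.14, adjusted *P* = 0.0413) and -1.05 at HS21 (SE 0.082, adjusted *P* = 1.17e-05). The HS14 call was lost in 8 of 10 fits without a single library, but the ratio stayed between -0.70 and -0.52 in them and the adjusted *P* was 0.00316 to 0.1.

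*Ctsa*, the carboxypeptidase that also protects the sialidase *Neu1* and the galactosidase *Glb1* in a lysosomal complex, read 2369, 2201, 2054, 2351 and 2242 CPM in Cx LS. The HS14 libraries held 1997, 2124, 2072, 2255 and 1348 CPM and overlapped with LS. At HS21 the values were 1587, 1263, 1566, 1537 and 1421 CPM, all under the lowest LS library. The log2 ratio at HS21 was -0.62 (SE 0.072, adjusted *P* = 9.52e-05). Both partners of the complex were lowered as well at HS21, *Neu1* by -0.35 on the log2 scale (SE 0.071, adjusted *P* = 0.00272) and *Glb1* by -0.34 (SE 0.077, adjusted *P* = 0.00496).

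*Ctsb*, which has both endopeptidase and peptidyl-dipeptidase activity, moved alongside *Ctsa*. Its Cx LS libraries held 2724, 2700, 2431, 2605 and 2454 CPM, its HS14 libraries 2534, 2466, 2591, 2617 and 1499 CPM, and its HS21 libraries 1989, 1578, 1812, 2004 and 1840 CPM. The HS21 libraries were all below LS, by -0.50 on the log2 scale (SE 0.073, adjusted *P* = 0.000343), and 4 of the 5 HS14 libraries lay within the LS range. *Lgmn*, a lysosomal asparaginyl protease that processes several cathepsins, had a ratio of -0.54 (SE 0.09, adjusted *P* = 0.000754) at HS21.

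*Ctsh*, an aminopeptidase grouped with the tubular cathepsins, was not called at either time. The Cx LS libraries held 1349, 1367, 1373, 1382 and 1192 CPM and the HS21 libraries 1254, 1034, 1407, 1447 and 1386 CPM, and the groups overlapped. The log2 ratio at HS21 was -0.04 (SE 0.09, adjusted *P* = 0.728) and turned to 0.09 with total-count scaling. At HS14 the range was widest, with 1649, 1422, 1976, 1837 and 1054 CPM where the ratio was 0.23 (SE 0.13, adjusted *P* = 0.413). Every LS library was exceeded by 4 of these HS14 libraries, and the remaining one, replicate 10, was below all of them.

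*Ctss*, an endopeptidase that is active at neutral pH and cuts the invariant chain in antigen presenting cells, read 24.3, 19.2, 26.4, 26.9 and 25.5 CPM in Cx LS. At HS14 the libraries held 43.0, 27.3, 38.9, 47.7 and 25.4 CPM, with 4 of 5 above the LS range. At HS21 they held 78.7, 45.7, 33.6, 87.7 and 154 CPM, all above LS but far apart from each other. Among the HS21 libraries, replicate 13 with the lowest *Ctss* also had the lowest *Ptprc* (39.8 CPM), a pan-leukocyte gene, and replicate 15 with the highest *Ctss* had the highest (133 CPM). The log2 ratio was 0.56 at HS14 (SE 0.16, adjusted *P* = 0.098) and 1.69 at HS21 (SE 0.34, adjusted *P* = 0.00232). The HS14 ratio passed the test with DESeq2 on all libraries (0.56, adjusted *P* = 0.0249) and, by edgeR, without Cx HS14 replicate 10 (0.66, adjusted *P* = 0.0353).

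*Ctsz* had the largest rise of the 9 genes in the Cx. Its level was 16.6, 14.1, 18.4, 15.1 and 13.6 CPM in LS, 28.4, 23.8, 26.5, 28.2 and 21.2 CPM at HS14, and 57.8, 49.0, 24.0, 71.0 and 84.4 CPM at HS21. Both HS groups were above LS in all libraries. The log2 ratio was 0.70 at HS14 (SE 0.1, adjusted *P* = 0.00993) and 1.87 at HS21 (SE 0.27, adjusted *P* = 0.000317). Both calls were kept in each of the fits without a single library, and the HS14 call was lost only when all 15 Cx libraries shared 1 fit (adjusted *P* = 0.153).

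*Ctsc*, grouped with *Ctss* and *Ctsz*, stood closer to LS at HS21 than they did. Its Cx LS libraries were tight at 320, 324, 322, 306 and 322 CPM, the HS14 libraries held 374, 372, 444, 395 and 378 CPM and the HS21 libraries 430, 419, 359, 304 and 344 CPM. All HS14 libraries were above LS, while 1 HS21 library was below it. The log2 ratio was 0.28 at HS14 (SE 0.055, adjusted *P* = 0.027) and 0.20 at HS21 (SE 0.086, adjusted *P* = 0.0787). The HS14 call was lost in 6 of 10 fits without a single library, and the HS21 ratio passed the test without HS21 replicate 14 (0.28, adjusted *P* = 0.00957) and with total-count scaling (0.33, adjusted *P* = 0.00876).

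*Ctsd*, the main aspartic protease of lysosomes, was raised modestly and evenly at HS21. It read 594, 579, 569, 554 and 566 CPM in Cx LS, 598, 589, 682, 732 and 809 CPM at HS14, and 745, 727, 685, 695 and 665 CPM at HS21. The HS21 libraries were all above LS by 0.28 on the log2 scale (SE 0.046, adjusted *P* = 0.000718), and the HS14 ratio was 0.24 (SE 0.087, adjusted *P* = 0.18). *Ctsk*, a collagen-degrading protease, stayed between 6.75 and 13.4 CPM in all 15 Cx libraries. Its HS21 ratio of 0.34 (SE 0.13) passed the test narrowly (adjusted *P* = 0.0494) and 8 of 10 fits without a single library lost that call, where the adjusted *P* ranged up to 0.105.

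At HS14 the Cx thus had 2 cathepsins raised and 1 lowered, where 1.14% of 14181 tested genes were raised and 1.18% lowered. The groups did not overlap for the same 3 genes, 2 above and 1 below LS, where 3.06% and 2.11% of tested genes separated in those directions. Between the HS groups, whose libraries also enter the comparisons with LS, *Ctsz* was higher at HS21 than at HS14 (log2 ratio 1.16, SE 0.26, adjusted *P* = 0.0157) and *Ctsa* was lower (-0.40, SE 0.12, adjusted *P* = 0.0471), where 6.5% and 9.69% of 14395 tested genes were called in those directions. The *Ctss* ratio was 1.13 (SE 0.36, adjusted *P* = 0.051) and passed the test with DESeq2 (adjusted *P* = 0.0346). Without Cx HS14 replicate 10, which had the lowest *Ctsa*, *Ctsb*, *Ctsl* and *Ctsh* of its group, *Ctsb* (-0.47, adjusted *P* = 0.00275), *Ctsh* (-0.40, adjusted *P* = 0.0352) and *Ctsl* (-0.54, adjusted *P* = 0.00119) passed the test as well. The *Ctsa* call was lost in 8 of 10 fits without a single library.

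**Figure D2:**
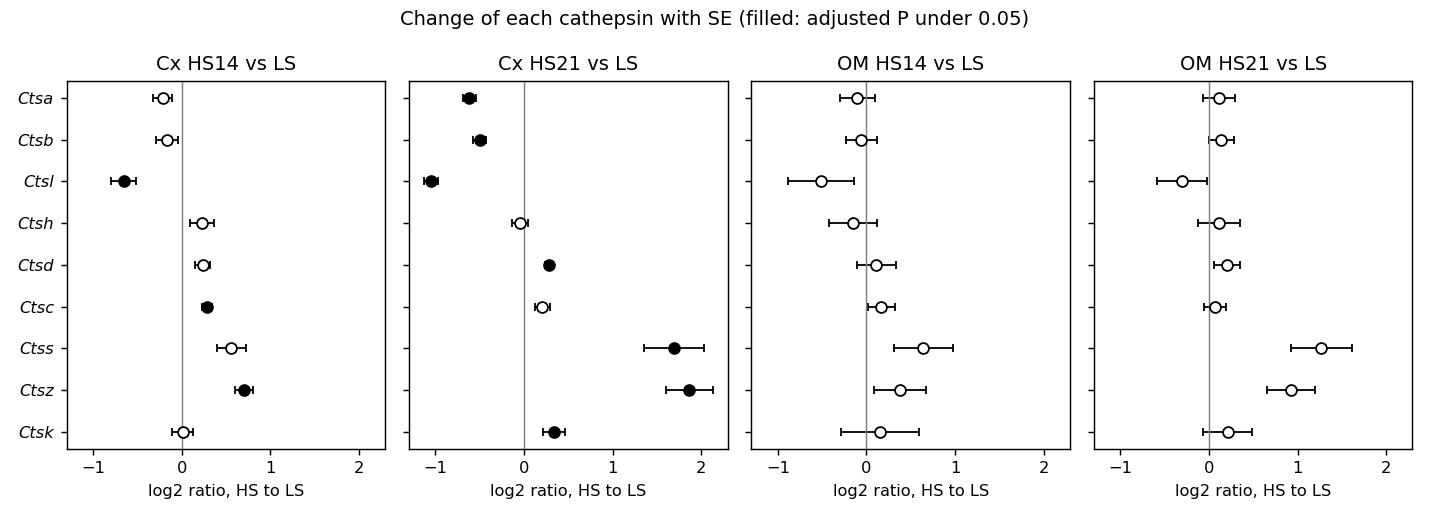
Log2 ratio of HS to LS (horizontal axis) with its SE for each cathepsin in Cx and OM at HS14 and HS21, filled where the adjusted *P* was under 0.05. The Cx at HS21 has filled points on both sides of 0, from -1.05 for *Ctsl* to 1.87 for *Ctsz*, and no point of the OM is filled.

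In the OM none of the 9 genes passed the test at HS14 or at HS21, where 0.00694% of 14417 and 0.769% of 14555 tested genes did. The unadjusted *P* was under 0.05 for none at HS14 and for *Ctss* and *Ctsz* at HS21, and DESeq2 called the same 2 genes at HS21 (adjusted *P* = 0.0136 and 0.034). *Ctss* read 35.8, 14.8, 40.5, 31.0 and 59.1 CPM in OM LS and 98.1, 56.6, 60.0, 102 and 126 CPM at HS21, where only 1 LS library reached into the HS21 range. Its log2 ratio was 1.27 (SE 0.34, adjusted *P* = 0.131), and that of *Ctsz* was 0.93 (SE 0.27, adjusted *P* = 0.158), from 35.6, 13.4, 24.7, 20.2 and 40.0 CPM to 61.9, 47.1, 38.2, 56.9 and 54.2 CPM. By exact permutation of the 10 libraries both had a two-sided *P* of 0.0159, where the smallest possible is 0.00794.

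The tubular cathepsins of the OM varied widely between libraries of a group. *Ctsl* ranged from 608 to 1790 CPM in LS, 294 to 1197 CPM at HS14 and 594 to 1162 CPM at HS21, with log2 ratios of -0.51 (SE 0.37) and -0.31 (SE 0.28). *Ctsa* and *Ctsb* had HS21 ratios of 0.11 (SE 0.18) and 0.14 (SE 0.14). Without OM LS replicate 2 the HS21 ratios were -0.05 for *Ctsl*, 0.31 for *Ctsa* and 0.27 for *Ctsb*, none past the test, and the HS14 ratio of *Ctsl* was -0.25. Across all OM libraries the summed PT markers ranged from 4561 to 29570 CPM, and the part of this range in the cathepsin values was not tested. With OM LS replicate 2 and OM HS14 replicate 10 both left out, a choice made after seeing the data, the HS14 ratios turned from -0.10 to 0.18 for *Ctsa*, from -0.06 to 0.17 for *Ctsb* and from -0.15 to 0.22 for *Ctsh*, none past the test.

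The change at HS21 was not shown to differ between the tissues for any of the 9 genes in all 20 libraries. Of 15194 tested genes 0.665% passed the interaction test. The unadjusted *P* was under 0.05 for 4 of the cathepsins. Over all tested genes it was so for 1001 with an interaction above 0 and 1366 below. The interaction, taken as the OM change minus the Cx change, was 0.64 for *Ctsb* (SE 0.17, adjusted *P* = 0.09), 0.73 for *Ctsa* (SE 0.21, adjusted *P* = 0.108), 0.74 for *Ctsl* (SE 0.31, adjusted *P* = 0.257) and -0.94 for *Ctsz* (SE 0.4, adjusted *P* = 0.264). The calls changed without OM LS replicate 2, the library with *Slc12a3* and *Slc34a1* far above its group. Then the interaction was 0.95 for *Ctsa* (adjusted *P* = 0.00129), 0.80 for *Ctsb* (adjusted *P* = 0.0028) and 1.03 for *Ctsl* (adjusted *P* = 0.0175). In that fit 729 of 15391 tested genes were called above 0 and 546 below. DESeq2 called *Ctsa* and *Ctsb* with no library left out (adjusted *P* = 0.0209 and 0.00914), where it called 341 of 14597 tested genes above 0 and 199 below.

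The 2 groups of genes were set against each other as the mean log2 CPM of the 3 leukocyte genes minus that of the 4 tubular genes. *Ctsc* counts among the 3 only by the grouping set beforehand. Over the 15 Cx libraries its Pearson's *r* with *Ptprc* was 0.316, against 0.984 for *Ctsz* and 0.926 for *Ctss*. In Cx LS it was -5.39 ± 0.15 (SD, *n* = 5), from -5.59 to -5.17. It was -4.67 ± 0.21 at HS14, from -4.93 to -4.34, and -3.69 ± 0.5 at HS21, from -4.49 to -3.11, and neither HS group overlapped with LS. The tubular mean was lower at HS21 than on LS and the leukocyte mean was higher, although *Ctsh* and *Ctsc* did not pass the test. In the OM it was -3.32 ± 0.85 in LS, -2.69 ± 0.34 at HS14 and -2.57 ± 0.38 at HS21, and the groups overlapped. The OM LS value without replicate 2, which stood at -4.74, was -2.97 ± 0.36 (SD, *n* = 4). The tubular mean of the OM was not lower at HS21 (8.87 against 8.80 on LS), and the leukocyte mean was 6.30 against 5.47. With *Ctsc* left out of the leukocyte genes, a choice made after seeing the data, the Cx values were -6.74 ± 0.2 in LS, -5.90 ± 0.21 at HS14 and -4.55 ± 0.75 at HS21, and again neither HS group overlapped with LS.

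**Figure D3:**
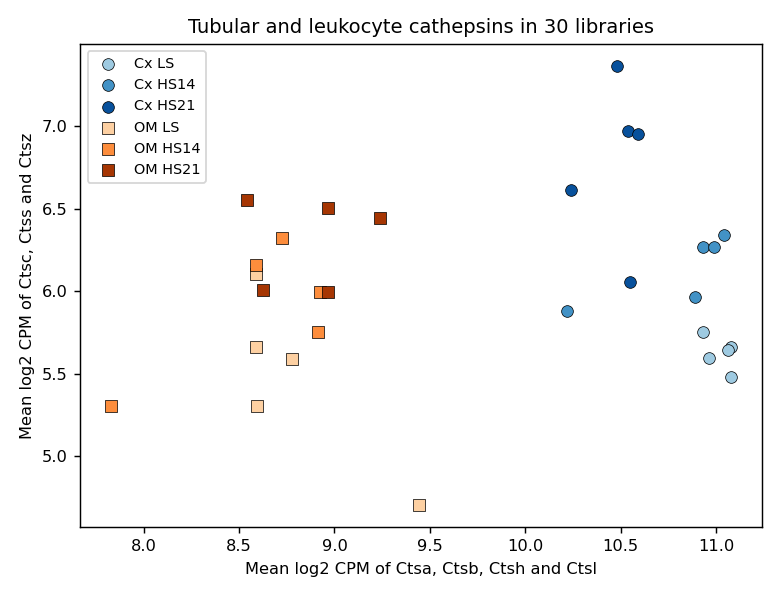
Mean log2 CPM of *Ctsc*, *Ctss* and *Ctsz*, grouped as leukocyte cathepsins (vertical axis), against that of the 4 tubular cathepsins (horizontal axis). Each of the 30 libraries is a point, with circles for Cx and squares for OM. Cx libraries move up and to the left from LS to HS21, from a mean of 11.02 to 10.48 on the horizontal axis and from 5.63 to 6.79 on the vertical axis.

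The sum of the 9 genes per kilobase in the Cx was 5057 ± 248 CPM per kilobase in LS, 4540 ± 775 at HS14 and 3744 ± 284 at HS21 (SD, *n* = 5). All HS21 libraries (3257 to 3970) were below all LS libraries (4719 to 5271). The HS14 value rested on replicate 10 (3200), and without it the mean was 4875 ± 231, within the LS range. In the OM the sum was 1535 ± 334, 1369 ± 366 and 1594 ± 252, and without LS replicate 2 and HS14 replicate 10 it was 1388 ± 63.7 in LS and 1523 ± 142 at HS14. The composition of this sum shifted too. *Ctsl* went from 29.3% ± 1.43 in Cx LS to 20.9% ± 1.92 at HS14 and 19.3% ± 0.68 at HS21, and *Ctsh* from 15.04% ± 0.994 to 19.8% ± 1.53 at HS21. *Ctsd* rose from 5.61% ± 0.254 to 9.35% ± 0.997 of the sum. *Ctss* and *Ctsz* remained minor, with 2.14% ± 1.22 and 1.13% ± 0.428 at HS21. Since these are shares of a common sum, a lower share of 1 gene raises the others.

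**Figure D4:**
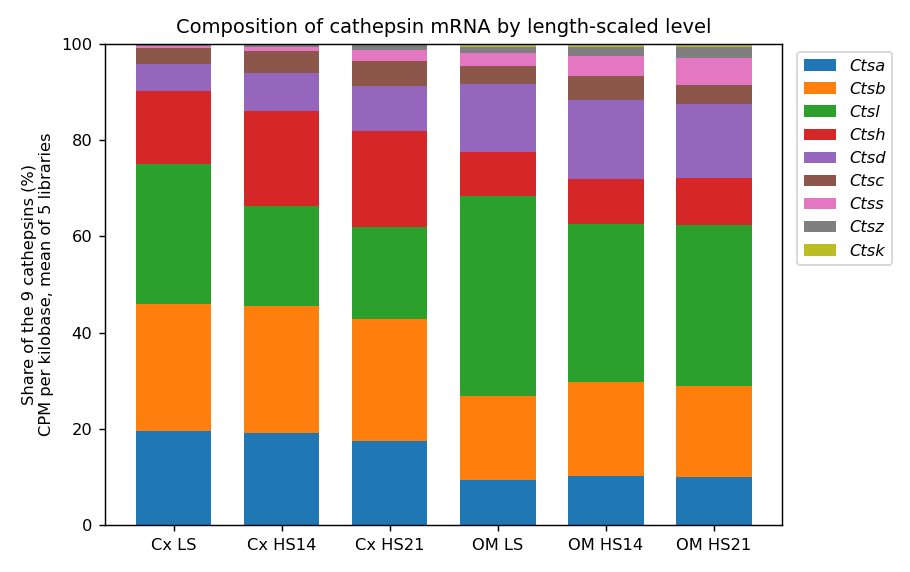
Share of each cathepsin in the sum of the 9 genes (vertical axis, percent of CPM per kilobase, mean of 5 libraries) in the 6 groups. The *Ctsl* segment takes 29.3% in Cx LS, 19.3% in Cx HS21 and 41.7% in OM LS.

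Cell markers moved with the cathepsins in the Cx at HS21, where 18.9% of all tested genes were raised and 20.5% lowered. Of 15 PT markers 13 were lowered and none raised at HS21 (median log2 ratio -0.67, all tested genes 0.00461), with a summed level of 22060 to 24210 CPM in LS and 13970 to 18380 CPM at HS21. Of 11 tested macrophage markers all 11 were raised (median 1.56), from a summed 144 to 188 CPM in LS to 247 to 848 CPM at HS21, and all 9 tested general leukocyte markers and all 8 tested T cell markers were raised (medians 1.80 and 2.62). *Slc34a1* was lowered (-0.45, SE 0.11, adjusted *P* = 0.00663), and *Csf1r*, the macrophage growth factor receptor (1.17, SE 0.14, adjusted *P* = 0.000129), and *Ptprc* (CD45; 1.86, SE 0.26, adjusted *P* = 0.000266) were raised. Of 6 tested distal convoluted and connecting tubule markers 5 were raised, *Slc12a3* with a ratio of 0.83 (SE 0.15, adjusted *P* = 0.00132). Raised as well were 5 of 5 intercalated cell, 4 of 5 collecting duct principal cell and 3 of 4 podocyte markers. Of 5 thick ascending limb markers 3 were raised and 1 lowered. Of the fibroblast markers 1 of 7 was raised. Of 3 tested osteoclast markers none was raised and 1 was lowered, *Acp5* (-0.45, SE 0.062, adjusted *P* = 0.000247). No marker of the PT, distal tubule, macrophage, general leukocyte, fibroblast and osteoclast lists was without counts except *Pvalb*, a distal convoluted tubule marker.

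Set against the mean of the PT markers of the same library, *Ctsa* and *Ctsb* differed from LS by -0.06 and 0.06 on the log2 scale in the Cx at HS21, and the groups overlapped. *Ctsl* was lower by -0.49 relative to these markers, with all HS21 libraries below all LS libraries, and *Ctsh* was higher by 0.51, with all above. *Ctsd* was higher by 0.84 in all libraries. Against the mean of the macrophage markers, *Ctss* differed by 0.19 with overlap and *Ctsz* by 0.44 with all HS21 libraries above LS, whereas *Ctsc* differed by -1.12 with overlap. Against the mean of the general leukocyte markers, *Ctss* differed by 0.004 and *Ctsz* by 0.25, both with overlap. There *Ctsc* differed by -1.30, with all HS21 libraries below LS. Against the mean of the distal convoluted and connecting tubule markers, *Ctsc* differed by -0.34 and *Ctsd* by -0.25, both with overlap. The lists of other nephron segments were not compared in this way. These differences are descriptions without a test.

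The genes most like each cathepsin over the 15 Cx libraries were sought by Pearson's *r* of log2 CPM among 13345 protein-coding genes whose mean reached 1 CPM. These libraries share the diet groups, so *r* is also given after removing each group's mean. *Ctss* was most like *C1qc*, *C1qb* and *C1qa*, the complement subunits made by macrophages (*r* = 0.989, 0.985 and 0.98, and 0.973, 0.963 and 0.95 within groups). *Ctsz* was most like *Aif1*, *Tyrobp* and *Ncf1* of myeloid cells (*r* = 0.992, 0.989 and 0.984, and 0.97, 0.95 and 0.94 within groups). *Ctsa* and *Ctsb* had the same leading gene, *Slc25a15*, the mitochondrial ornithine carrier (*r* = 0.981 and 0.972, and 0.965 and 0.974 within groups). *Ctsb* was also close to *Cubn* (cubilin, *r* = 0.968, 0.952 within groups). *Ctsl* was most like *Mob3b* (*r* = 0.965, 0.882 within groups) and *Slc37a4*, the glucose-6-phosphate transporter (*r* = 0.955, 0.818 within groups).

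The others had looser neighbours. With *r* within groups in brackets, *Ctsh* was most like *Msn* (moesin), at 0.961 (0.95). *Ctsd* was most like *Fam63a*, at 0.937 (0.87), and *Krt18* (keratin 18), at 0.928 (0.839). *Ctsk* was most like *Fabp5*, at 0.904 (0.847), and *Ctsc* most like *Stard8*, at 0.885 (0.791). With *Ptprc*, the common leukocyte antigen, *Ctsz* had an *r* of 0.984 (0.93 within groups) and *Ctss* of 0.926 (0.817), but *Ctsc* of 0.316 (-0.257). With *Lrp2*, *Ctsa* had an *r* of 0.924 (0.943 within groups), *Ctsl* of 0.823 (0.937), *Ctsb* of 0.865 (0.896) and *Ctsh* of 0.491 (0.763). With the PT gene *Slc34a1* it was 0.84 (0.54), 0.80 (0.56), 0.75 (0.42) and 0.41 (0.50) in the same order. With the macrophage gene *Csf1r* it was -0.54 (0.59), -0.62 (0.59), -0.38 (0.67) and 0.18 (0.56). Within groups these genes were thus not tied to PT genes alone. These values include Cx HS14 replicate 10, lowest of its group in all 4 genes and in *Lrp2* (3764 CPM against 5593 to 5956 CPM). How far the within-group *r* of the tubular cathepsins rests on that library was not tested.

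Other cathepsins and partners of the pathway followed in the Cx at HS21. Of 13 further cathepsin symbols 10 were found and 3 had enough counts to be tested. *Ctsw*, known from cytotoxic lymphocytes, rose from 1.43 ± 0.623 to 12.9 ± 8.9 CPM (log2 ratio 3.16, SE 0.52, adjusted *P* = 0.000748), and *Ctse*, an aspartic protease, rose from 2.58 ± 0.682 to 6.28 ± 1.76 CPM (1.27, SE 0.24, adjusted *P* = 0.00187). *Ctsf* had a ratio of 0.05 (SE 0.075, adjusted *P* = 0.653). Of 5 tested inhibitors 4 were raised and 1 lowered. The secreted inhibitor *Cst3* (cystatin C) rose by 0.83 on the log2 scale (SE 0.14, adjusted *P* = 0.000877) and the cytosolic inhibitor *Cstb* (stefin B) was lowered by -0.51 (SE 0.061, adjusted *P* = 0.000112).

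On the substrate side, 11 of 12 genes of receptor-mediated uptake were lowered and none raised in the Cx at HS21 (median log2 ratio -0.48), where 20.5% of all tested genes were lowered and 18.9% raised. They included *Lrp2* (-0.99, SE 0.083, adjusted *P* = 1.56e-05), *Cubn* (-0.96, SE 0.091, adjusted *P* = 2.95e-05) and their adaptor *Dab2* (-1.24, SE 0.08, adjusted *P* = 3.28e-06). On the side of antigen presentation, 5 of 9 MHC class II genes were raised and none lowered (median 1.52, the same shares of all genes), among them *Cd74*, the invariant chain cut by *Ctss* (1.06, SE 0.21, adjusted *P* = 0.00233). *Cd74* was also called in the OM at HS21 (1.40, SE 0.25, adjusted *P* = 0.0392), where *Ctss* itself was not. Both tested granule proteases of the list that *Ctsc* activates, *Gzmk* (2.35, SE 0.47, adjusted *P* = 0.0024) and *Gzmm* (2.50, SE 0.55, adjusted *P* = 0.00408), were raised in the Cx at HS21, while *Ctsc* was not called.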

How the data were processed

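Poly(A)-selected, unstranded mRNAseq libraries of rat Cx and OM were analysed from a table of the whole series. The authors aligned reads to Ensembl Rnor_6.0 with HISAT2 2.0.5 and counted them per gene with featureCounts 1.5.0-p3 (StringTie 1.3.3b is also named in the submitters' processing notes). Counts were used as deposited by the authors, unscaled. Deposited FPKM values, which the authors made with library sizes proportional to DESeq2's size factors, served only in an alternative fit (pseudocount 1). Gene length in bases is as deposited by the authors. The authors' group means, fold changes and p-values were not used.

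Groups were compared with edgeR 4.0.16 in R 4.3.3 (filterByExpr, TMM, quasi-likelihood F-test, Benjamini-Hochberg over all tested genes, threshold 0.05), with the 10 libraries of the 2 groups only, or the 20 LS and HS21 libraries for the interaction. CPM are scaled by TMM over all 30 libraries, and log2 CPM uses a prior count of 2. Alternatives were DESeq2 1.42.0, limma 3.58.1 on log2 FPKM, other scalings, no low-count filter, all libraries of the tissue (or of both tissues) in 1 fit, a replicate block and each library left out. Scripts were tested on simulated data. Replicates of a group are different rats according to the study, and *P* values measure the spread between them. The main comparisons of both tissues took no account of rats that may have given both. The members and gene lists were chosen with earlier results of these data known. Named genes are the 9 members, up to 3 genes per list with the smallest *P* in the Cx at HS21, defining cell markers, functional partners and the 3 genes most like each member. A gene that this rule names is not reported here. Total counts per library were 5408126 to 21842843.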

Additional observations from a re-analysis of the deposited data

Results flagged for a closer look

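In 9 of 54 sets of 5 libraries (9 genes in 6 groups), 1 library lay apart from the rest of its group by Dixon's test at the 95% level (critical value 0.71), a test that by chance marks about 1 set in 20. Cx HS14 replicate 10 was low in *Ctsa* (1348 CPM, the others 1997 to 2255), *Ctsb* (1499 CPM, the others 2466 to 2617) and *Ctsl* (959 CPM, the others 1622 to 1791). The same library had the lowest *Cubn* of its group, 414 CPM against 876 to 996 CPM, and the highest summed distal convoluted and connecting tubule markers, 4173 CPM against 2324 to 2734 CPM. Their part in the low cathepsin values was not tested.

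OM LS replicate 2 was high in *Ctsa* (491 CPM, the others 265 to 306) and *Ctsb* (702 CPM, the others 456 to 505), with summed PT markers of 29570 CPM against 4561 to 16100 CPM. OM HS14 replicate 10, the shallowest library, was low in *Ctsh* (110 CPM, the others 241 to 281) and *Ctsk* (2.41 CPM, the others 12.1 to 17.8). The remaining marked values were *Ctsc* in Cx LS replicate 4 (306 CPM, the others 320 to 324) and *Ctsh* in Cx LS replicate 5 (1192 CPM, the others 1349 to 1382).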

How the results depend on the processing

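Of 1125 cathepsin values recomputed under an alternative, 1030 kept their direction and their side of the threshold, 47 lost and 25 gained a call, and 23 changed sign, none of them past the threshold before. The number of raised cathepsins in the Cx at HS14 was 0 with all libraries in 1 fit, and the number lowered was 0 with limma. For HS21 against HS14 in the Cx the number raised was 3 with total counts, DESeq2 or all libraries in 1 fit, and the number lowered was 0 with DESeq2's size factors, total counts, no filter or limma and 2 with DESeq2 or all libraries. DESeq2 raised 2 in the OM at HS21 and 2 in the interaction. For OM against Cx on LS the number raised was 0 with limma and with the replicate block, where *Ctsz* had a ratio of 0.69 (adjusted *P* = 0.0649). The block changed no count of the interaction. Equal replicate numbers correlated over 0.1 in 12 of 15 pairs (from -0.0823 to 0.508, over 14071 genes) with the HS21 pairs at 0.263 to 0.508, and best with their own number in 13, which is a hint of pairing from the data. Because 3 pairs were not over 0.1 and no label states a shared rat, the block was kept as an alternative.

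Signs changed with total counts for *Ctsh* in the Cx at HS21 (0.0867) and *Ctsc* in HS21 against HS14 (0.0379), and without OM LS replicate 2 and OM HS14 replicate 10 at HS14, an alternative chosen after seeing the data, for *Ctsa* (0.18), *Ctsb* (0.17) and *Ctsh* (0.22). The cause was not tested. With single libraries left out, counts of raised genes ranged from 1 to 3 in Cx HS14, 3 to 4 in Cx HS21, 1 to 2 in HS21 against HS14, 0 to 2 in OM against Cx and 0 to 3 in the interaction, and were 0 in both OM comparisons with diet. Lowered genes ranged from 0 to 1, 3 to 3, 0 to 4, 6 to 6 and 0 to 0 in the same order.
Sign changes in these fits touched uncalled values only, with ranges of *Ctsk* -0.067 to 0.0702 in Cx HS14, *Ctsh* -0.0865 to 0.0462 in Cx HS21, *Ctsa* -0.161 to 0.0947, *Ctsb* -0.103 to 0.0751, *Ctsh* -0.248 to 0.048, *Ctsk* -0.00835 to 0.46 in OM HS14, *Ctsc* -0.00588 to 0.169, *Ctsh* -0.0463 to 0.319 in OM HS21, *Ctsd* -0.0086 to 0.112 in HS21 against HS14, *Ctsk* -0.014 to 0.439 in OM against Cx, *Ctsd* -0.131 to 0.0515, *Ctsh* -0.011 to 0.384, *Ctsk* -0.275 to 0.178 in the interaction.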

Other observations

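The genes of the lysosome around the cathepsins were counted in the Cx at HS21, where 20.5% of all tested genes were lowered and 18.9% raised. Of 41 hydrolases 23 were lowered, a higher share than over all genes, and 5 were raised, a lower share (median log2 ratio -0.27), among the lowered *Tpp1* (-0.55, SE 0.069, adjusted *P* = 0.000133) and *Hexa* (-0.45, SE 0.056, adjusted *P* = 0.000148). Of 18 genes of the lysosomal membrane and cholesterol export 7 were lowered, among them *Lamp2* (-0.50, SE 0.052, adjusted *P* = 4.91e-05) and *Lamp1* (-0.33, SE 0.044, adjusted *P* = 0.000215), and 5 raised. Of 21 subunits of the proton pump that acidifies lysosomes 5 were lowered, led by *Atp6v1b2* (-0.77, SE 0.049, adjusted *P* = 3.28e-06), and 5 raised, both near the shares over all genes. Of 9 genes that sort hydrolases by mannose 6-phosphate 3 were lowered, with the receptor *Igf2r* at -0.52 (SE 0.094, adjusted *P* = 0.00121), and 2 raised.

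Of 10 regulators of lysosomal genes 5 were lowered and 1 raised (median log2 ratio -0.13), against the same shares over all genes of 20.5% and 18.9%. *Tfec* had a log2 ratio of -0.73 (SE 0.083, adjusted *P* = 8.66e-05), *Rragc* of -0.30 (SE 0.054, adjusted *P* = 0.00133) and *Fnip1* of -0.39 (SE 0.075, adjusted *P* = 0.00196). None of the genes of these lists passed the test in the OM at HS21, where 0.769% of all tested genes did.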
